A study of Mus musculus with 12 samples.

Results

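The splicing factor and hnRNP genes described here are the 67 of 14851 listed genes whose symbol starts with Srsf, Hnrnp, Snrp, Sf3a, Sf3b, U2af or Prpf. They were taken by symbol alone, but the set was chosen with earlier results of these data known. They comprised 10 Srsf, 21 Hnrnp, 11 Snrp, 3 Sf3a, 6 Sf3b, 3 U2af and 13 Prpf genes. In each comparison 66 of them reached an RPKM (reads scaled to gene length and library total) of 0.5 in 3 or more of the libraries compared and were tested. The remaining gene, Hnrnpa1l2-ps2, a pseudogene by its symbol, had 2 to 12 reads per library.

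Introns are removed from nascent transcripts by the spliceosome, which is built anew on each intron from small nuclear ribonucleoproteins (snRNPs) and many loosely bound proteins. The U1 snRNP marks the 5′ splice site, the U2AF proteins bind the end of the intron, and the U2 snRNP with its SF3A and SF3B subcomplexes takes the branch point, before the U4, U5 and U6 snRNPs with the PRPF proteins complete the machine. SR proteins, encoded by the Srsf genes, mostly promote the use of exons they bind, while the hnRNP proteins coat nascent RNA and often repress or compete for splice sites. Many SR and hnRNP genes limit their own levels by splicing in exons that send the transcript to nonsense-mediated decay, and a count of reads per gene does not tell such transcripts from productive ones.

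RNA was sequenced from 562 cells, a spontaneously immortalized line from the cutaneous vascular tumors of a mouse (strain label C57BL/6) whose Tsc1 gene was deleted by tamoxifen in cells that express Scl-Cre, so that all groups, controls included, lack Tsc1. Atg5 KO, Atg7 KO and Fip200 KO cells were made by lentiviral CRISPR with guides against these autophagy genes (a pair of guides for Fip200 and 1 each for Atg5 and Atg7), and control cells carried a guide against EGFP; all cultures were selected with puromycin. Fip200, listed as Rb1cc1, belongs to the complex that starts autophagosome formation, whereas Atg5 and Atg7 act in the later conjugation of LC3 to lipid. Each group had 3 libraries, and the same 3 control libraries served all 3 comparisons, so their results are not independent of each other. The comparisons asked how the blockade of autophagy changed gene expression in these tumor cells. The genotype label of the control is wildtype, although these cells too come from a Tsc1-deleted tumor.

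Each library held 17264989 to 23627944 reads on the listed genes, a ratio of 1.37. Rb1cc1 was measured at 6.43, 8.27 and 7.73 RPKM in control and at 5.18, 6.84 and 2.06 in Fip200 KO, and Atg5 at 14.2, 11.1 and 10.6 in control and 8.53, 15.5 and 12.6 in Atg5 KO, so that neither targeted transcript separated its groups. Atg7 separated, with 18.4, 25.0 and 19.8 RPKM in control and 5.40, 2.64 and 8.34 in Atg7 KO, but it was also below every control in Atg5 KO, at 9.99, 11.9 and 9.94 (log2 fold change −0.95, adjusted p = 0.00830 in limma). A guide can disrupt a protein and leave its transcript, so these values check the labels only in part. All 8 endothelial markers were present, with summed RPKM of 1129 to 2717 in control and 1824 to 2910 in the KO libraries, but Prox1, which defines the labelled lymphatic endothelial type, did not exceed 5.79 RPKM. The leukocyte genes Ptprc and Adgre1 were near 0, while Cd68 ran from 6.95 to 263. The fibroblast gene Dcn was at 56.9 RPKM in control 2 and 15.2 in control 3, and at most at 0.989 in the other 10 libraries.

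The library names in the table headers start with FY (control 1 and all Fip200 KO libraries), JG (control 2 and 3, Atg5 KO 1 and 2) or Yang (Atg5 KO 3 and all Atg7 KO libraries). The sources used here do not say what these names stand for. No Atg7 KO library shared a prefix with a control, so this comparison can be separated from the prefix only through Atg5 KO 3, and control 1 is the only control beside the Fip200 KO libraries.

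In Atg5 KO cells most of the splicing genes were higher, among them 8 of the 10 SR genes and, with the largest changes, the hnRNP genes Hnrnpm and Hnrnpu. Of the 66 tested members, 36 rose in Atg5 KO and 2 fell at an adjusted p of at most 0.1 in limma, where 22.9% of all tested genes rose and 18.7% fell. In Atg7 KO cells 20 rose and 2 fell, against 11.3% and 13.7% of all genes. In Fip200 KO cells none passed in limma in either direction (0.356% of all genes rose and 1.69% fell). On reads, limma-voom also called 0 (0.212% and 1.38% of all genes). In a limma fit of all 12 libraries, however, 4 members were higher in Fip200 KO (3.47% of all genes), while 23 were higher in Atg5 KO (9.83%) and 13 in Atg7 KO (8.76%). In the fit of 6 libraries an unadjusted p under 0.05 was found for 7 members in Fip200 KO, 10.6% of those tested, beside 16.1% of all genes. The median log2 fold change over the 66 members was 0.44 in Atg5 KO, 0.31 in Atg7 KO and 0.18 in Fip200 KO, beside 0.06, −0.01 and 0.02 over all tested genes.

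The changes were mostly less than a doubling. With the further limit of a log2 fold change of at least 1, the threshold of the study, the members called higher were Hnrnpm and Hnrnpu in Atg5 KO and Hnrnpm, Sf3b3, Hnrnpu and Srsf2 in Atg7 KO, and no member was called lower in any KO. Over all genes this limit called 4.31% higher and 6.94% lower in Atg5 KO, 3.29% and 6.81% in Atg7 KO, and 0.347% and 1.64% in Fip200 KO. A log2 fold change above 0 was found for 59, 55 and 50 of the 66 members in Atg5 KO, Atg7 KO and Fip200 KO, where all genes gave 54.1%, 49.4% and 51.2%. The 3 control and 3 KO libraries did not overlap for 41 members that were higher and 3 that were lower in Atg5 KO (28.4% and 22% of all genes). In Atg7 KO the groups did not overlap for 28 higher and 4 lower members (19.2% and 20.4%), and in Fip200 KO for 12 and 3 (11.7% and 12.4%).

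The calls depended on how the library-name prefix was treated. With the prefix as a term in a limma fit of all 12 libraries no member passed in any KO, while the median log2 fold changes were 0.42, 0.30 and 0.15 in Atg5 KO, Atg7 KO and Fip200 KO. In that fit 2.73% of all genes rose and 3.70% fell in Atg5 KO, 0.0654% and 0.245% in Atg7 KO, and 0.0163% and 0.368% in Fip200 KO. At an unadjusted p under 0.05, 17 members were higher and 0 lower in Atg5 KO in that fit, beside 10.7% and 10.4% of all genes. In Atg7 KO 1 was higher and 0 lower, beside 4.14% and 5.49%, and in Fip200 KO 2 were higher and 1 lower, beside 2.35% and 4.81%. Within the JG libraries alone, 2 controls against 2 Atg5 KO libraries, 35 members rose and 2 fell in limma, beside 23.2% and 19.2% of all genes. The median log2 fold change within JG was 0.42, as with the prefix as a term, because both estimates rest on the JG libraries. These fits differ in their estimate of the spread, so the loss of calls is not a loss of the estimated change. Leaving out 1 library at a time kept the calls of 29 of the 38 members in Atg5 KO in every fit, but of only 2 of the 22 in Atg7 KO, Prpf31 and U2af2. The 20 higher members in Atg7 KO became 5 without control 3 or without Atg7 KO 1 (2.42% and 3.11% of all genes), 9 without control 2 (4.39%) and 11 without Atg7 KO 3 (5.70%). Leaving out control 2 left 1 member in Atg5 KO and 0 in Atg7 KO past the limit of a log2 fold change of 1 (8.49% and 6.33% of all genes in either direction), whereas 5 passed in Atg5 KO without control 1 or without control 3 (13% and 9.51%). Only 1 passed in Atg7 KO without Atg7 KO 1 (6.59%).

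Splicing genes are abundant, so genes of like level were set beside them. Among the 2097 genes with a mean RPKM between 29.0 and 94.5, the quartiles of the members, 29.6% rose in Atg5 KO and 15.3% in Atg7 KO. Of the 32 members in that range 16 rose in Atg5 KO and 6 in Atg7 KO. The Atg7 KO count was near the share of all genes in the range. Members above the range, among them Hnrnpm, Hnrnpu and Srsf2, had no such comparison. The median log2 fold change in this range was 0.35 for members and 0.12 for all genes in Atg5 KO; in Atg7 KO it was 0.22 and 0.08.

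**Figure D1:**
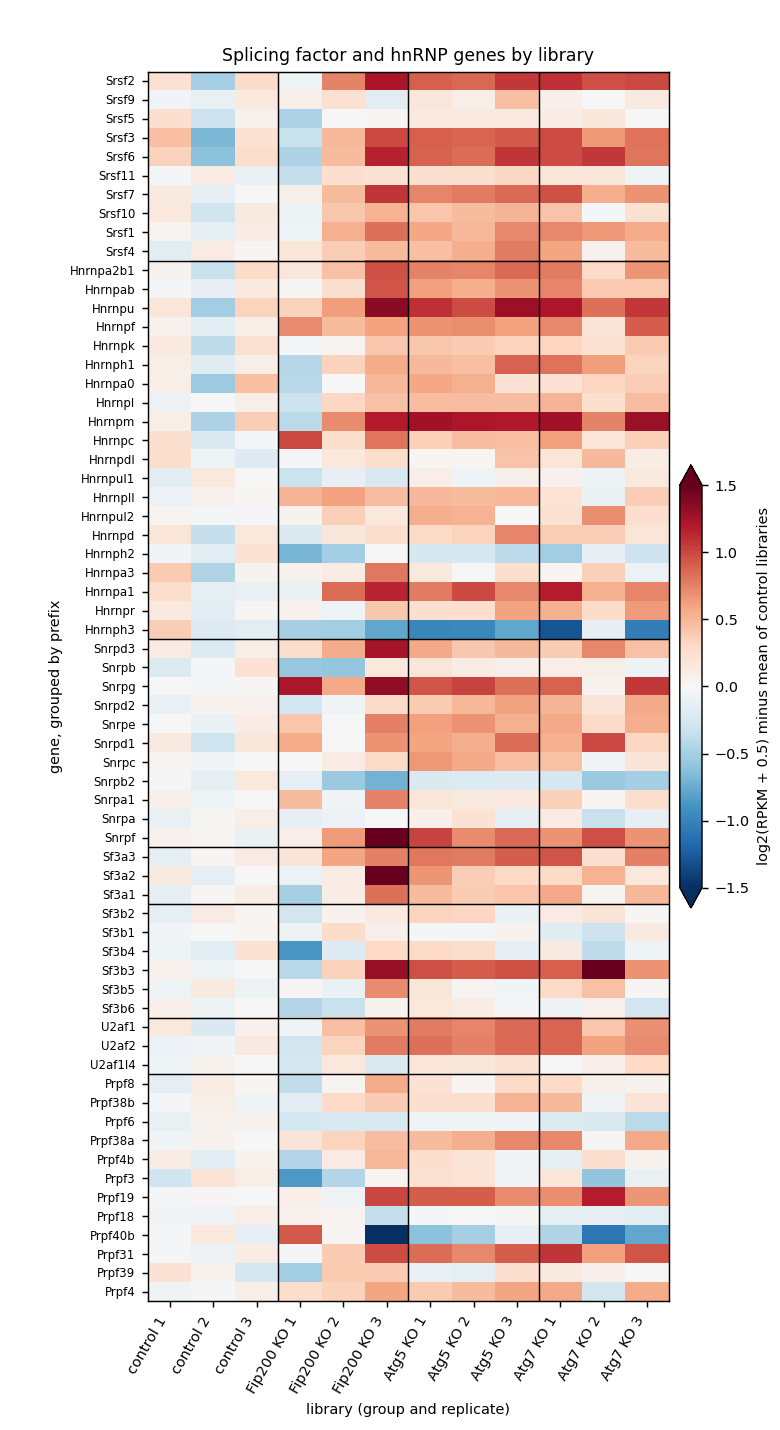
Each row is 1 gene, for 65 of the 66 tested genes, grouped by prefix and ordered by mean RPKM, and each column is 1 of the 12 libraries. Colour gives log2(RPKM + 0.5) minus the mean of the 3 control libraries, red for higher and blue for lower; most rows are red in the Atg5 KO and Atg7 KO columns, the 3 Fip200 KO columns differ from each other, and control 2 is blue for many Srsf and Hnrnp rows.

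The plot of all members by library showed that the Fip200 KO libraries did not agree among themselves. The mean of the 66 members, as log2(RPKM + 0.5) minus the control mean, was −0.06 in Fip200 KO 1, 0.18 in Fip200 KO 2 and 0.49 in Fip200 KO 3. The same mean was 0.41, 0.38 and 0.44 in the Atg5 KO libraries and 0.41, 0.25 and 0.31 in the Atg7 KO libraries, all above the controls, which had 0.04, −0.11 and 0.07. Fip200 KO 3 was thus above every Atg5 KO and Atg7 KO library, and Fip200 KO 1 was below 2 of the controls. Control 2 was the lowest control for Srsf genes, with a mean of −0.25, and for Hnrnp genes, with −0.21, but not for Prpf genes, with 0.04.

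**Figure D2:**
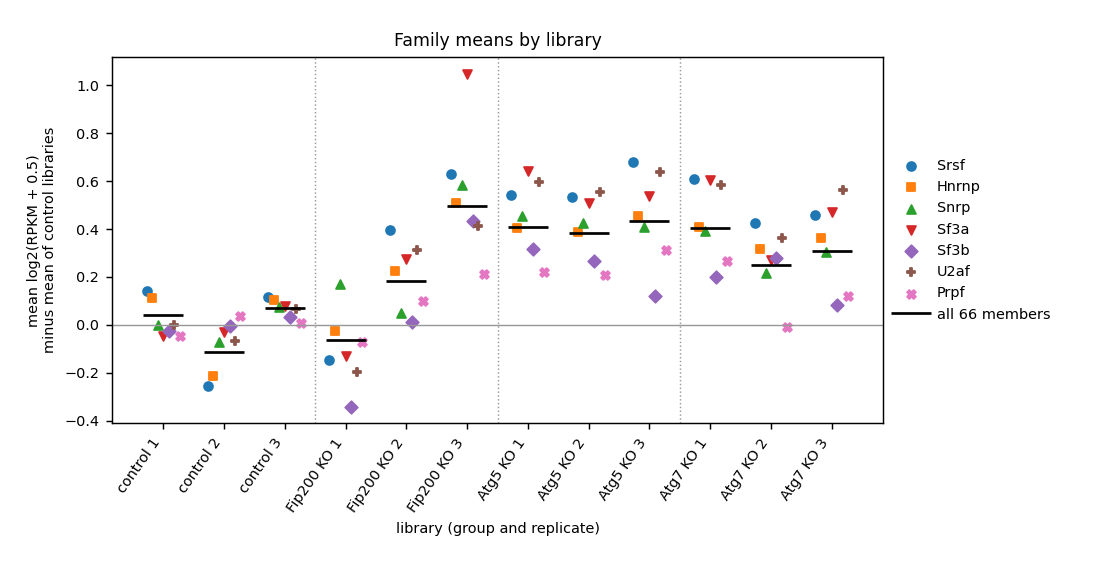
Mean log2(RPKM + 0.5) minus the control mean for the genes of each prefix (symbols) and for all 66 members (black bars) in each of the 12 libraries. The bars lie between −0.11 and 0.07 in control, between 0.25 and 0.44 in the Atg5 KO and Atg7 KO libraries, and spread from −0.06 to 0.49 in Fip200 KO.

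The prefixes differed in how many of their genes passed. In Atg5 KO 8 of 10 Srsf genes, 10 of 20 Hnrnp genes, 7 of 11 Snrp genes, 3 of 3 Sf3a genes, 2 of 3 U2af genes, 5 of 13 Prpf genes and 1 of 6 Sf3b genes rose, where 22.9% of all genes did. In Atg7 KO the counts were 4 of 10, 7 of 20, 3 of 11, 1 of 3, 2 of 3, 2 of 13 and 1 of 6 in the same order, where 11.3% of all genes rose. The Sf3b count in Atg5 KO was below the share of all genes, and the Prpf count in Atg7 KO was near it. The median log2 fold changes in Atg5 KO were 0.78 for U2af, 0.60 for Srsf, 0.50 for Snrp, 0.45 for Hnrnp, 0.44 for Sf3a, 0.16 for Prpf and 0.11 for Sf3b genes. In Atg7 KO they were 0.65, 0.51, 0.42, 0.39, 0.37, 0.08 and 0.01, and in Fip200 KO 0.28, 0.37, 0.39, 0.17, 0.51, 0.08 and 0.04. Prpf and Sf3b genes had the lowest medians in every KO. These differences between prefixes were not tested, and the prefixes hold as few as 3 genes.

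**Figure D3:**
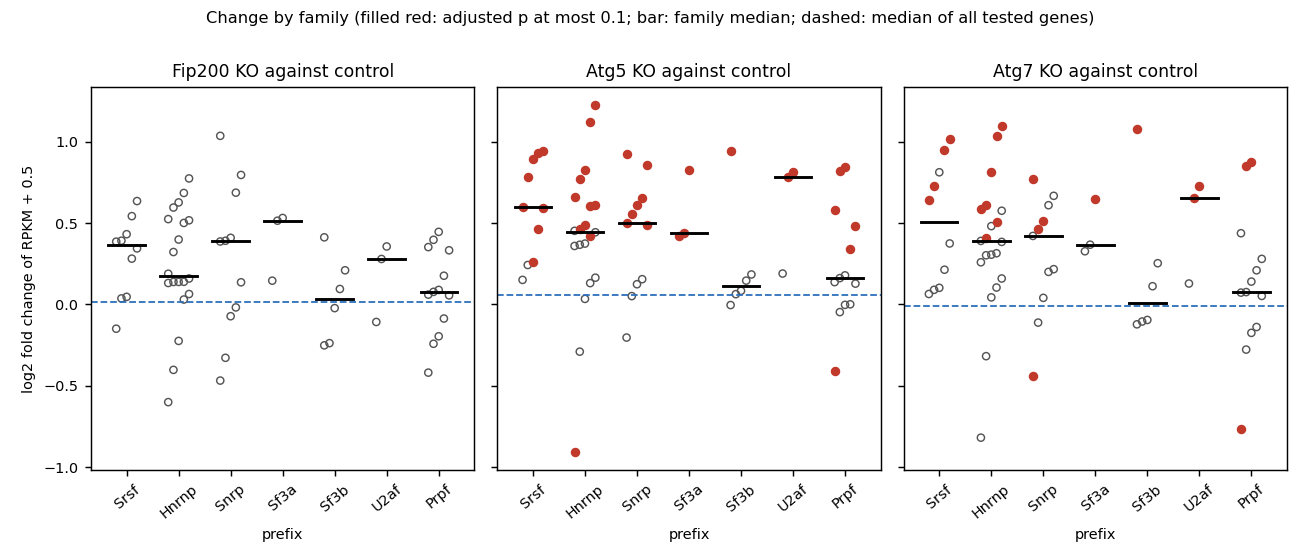
Log2 fold change of RPKM + 0.5 against control for each of the 66 tested genes by prefix, in 1 panel per KO, with red filled points for an adjusted p of at most 0.1 in limma, black bars for the median of the prefix and a dashed line for the median of all tested genes. Srsf and U2af medians lie at 0.60 and 0.78 in Atg5 KO and at 0.51 and 0.65 in Atg7 KO, Sf3b and Prpf medians lie near the dashed line, and no point is filled in Fip200 KO.

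Of the 10 SR genes, 8 rose in Atg5 KO and 4 in Atg7 KO. Srsf2, which encodes the SR protein SC35 that binds exonic enhancers and is mutated in myeloid cancers, was the SR gene with the highest mean RPKM. RPKM of Srsf2 was 90.2, 54.2 and 92.9 in control, 144, 139.9 and 161 in Atg5 KO, 164, 151 and 153 in Atg7 KO, and 73.8, 129 and 180.5 in Fip200 KO. All Atg5 KO and Atg7 KO libraries lay above all controls, while Fip200 KO 1 lay within the controls. Its log2 fold change was 0.94 ± 0.21 (SE, n = 3 per group, adjusted p = 0.0206 in limma) in Atg5 KO, 1.01 ± 0.22 (adjusted p = 0.0308) in Atg7 KO and 0.64 ± 0.37 (adjusted p = 0.433) in Fip200 KO. Srsf9, next in level among the SR genes, passed in no KO. RPKM of Srsf9 was 86.2, 81.6 and 98.3 in control, 99.9, 94.6 and 122 in Atg5 KO, 93.1, 87.7 and 96.8 in Atg7 KO, and 93.8, 103 and 78.6 in Fip200 KO, and the groups overlapped in every comparison.

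Srsf3, which encodes the smallest SR protein and also acts in mRNA export, and Srsf6, a regulator of exon choice in skin and other tissues, were low in control 2. RPKM of Srsf3 was 85.0, 38.6 and 72.1 in control, 116, 114 and 117 in Atg5 KO, 122, 97.1 and 109 in Atg7 KO, and 48.8, 87.9 and 124 in Fip200 KO. Its log2 fold change was 0.89 ± 0.28 in Atg5 KO (adjusted p = 0.0496 in limma) and 0.81 ± 0.29 in Atg7 KO, where it did not pass (adjusted p = 0.102). The Atg5 KO call of Srsf3 was lost in 3 of the 6 limma fits without 1 library, with adjusted p up to 0.124, and 31.5% of its 50-base transcript windows also occur in 5 other genes, so its values are uncertain. RPKM of Srsf6 was 56.3, 28.9 and 53.5 in control, 82.1, 79.4 and 93.6 in Atg5 KO, 87.9, 93.1 and 77.6 in Atg7 KO, and 32.1, 62.0 and 99.5 in Fip200 KO, and its log2 fold change was 0.93 ± 0.25 in Atg5 KO and 0.95 ± 0.26 in Atg7 KO (adjusted p = 0.0353 and 0.0561 in limma). Both genes thus separated Atg5 KO and Atg7 KO from control in every library, with control 2 at 38.6 and 28.9 RPKM as the lowest value of all 12.

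Srsf7 and Srsf1 had tight controls. RPKM of Srsf7, whose protein shares its RNA-binding preferences in part with that of Srsf3, was 34.6, 28.7 and 31.7 in control, 52.7, 54.7 and 57.2 in Atg5 KO, 61.7, 46.3 and 50.9 in Atg7 KO, and 33.6, 43.9 and 66.9 in Fip200 KO, and its log2 fold change was 0.79 ± 0.11 in Atg5 KO and 0.73 ± 0.16 in Atg7 KO (adjusted p = 0.00594 and 0.0321 in limma). RPKM of Srsf1, which encodes the founding SR protein SF2/ASF, was 22.3, 19.5 and 23.5 in control, 32.8, 31.0 and 36.1 in Atg5 KO, 36.1, 34.2 and 32.3 in Atg7 KO, and 20.8, 31.6 and 38.8 in Fip200 KO, and the corresponding values were 0.60 ± 0.12 and 0.64 ± 0.14 (adjusted p = 0.0137 and 0.0313 in limma). For both genes every Atg5 KO and Atg7 KO library was above every control. Srsf4, the SR gene with the lowest RPKM, rose in Atg5 KO by 0.59 and Srsf10 by 0.46 on the log2 scale, and Srsf11 by 0.26, the smallest of the 36 rises. The calls of Srsf10 and Srsf11 were lost in 3 and 5 of the 6 fits without 1 library. Srsf5 and Srsf9 had log2 fold changes of 0.15 and 0.24 in Atg5 KO and did not pass.

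The promoter sequences of the 4 members called with a log2 fold change of at least 1, and of Hnrnph3, the member with the largest fall among those that passed, are printed here because the results turn on these genes. They are RefSeq sequences of GRCm38.p6, 250 bases before to 50 after the start of the gene, read 5′ to 3′ on the gene's own minus strand. Srsf2 lies at chr11:116853045-116853344, Hnrnpm at chr17:33685409-33685708, Hnrnpu at chr1:178337766-178338065, Sf3b3 at chr8:110846754-110847053 and Hnrnph3 at chr10:63023800-63024099. Capitals mark the motif TATAAA, the motif CCAAT, the E-box CACGTG and the ETS motif CCGGAAG on either strand. Srsf2 and Hnrnpm hold TATAAA, Srsf2 and Sf3b3 CCAAT, Sf3b3 also TATAAA and CCGGAAG, Hnrnpm CACGTG, and Hnrnpu and Hnrnph3 none of these letters.
Srsf2: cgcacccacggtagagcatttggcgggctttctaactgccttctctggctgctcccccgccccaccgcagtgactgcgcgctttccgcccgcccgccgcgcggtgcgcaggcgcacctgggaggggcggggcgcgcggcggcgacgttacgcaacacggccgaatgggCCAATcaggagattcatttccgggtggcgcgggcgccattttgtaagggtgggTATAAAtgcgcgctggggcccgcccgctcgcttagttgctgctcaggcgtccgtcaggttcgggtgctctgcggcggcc
Hnrnpm: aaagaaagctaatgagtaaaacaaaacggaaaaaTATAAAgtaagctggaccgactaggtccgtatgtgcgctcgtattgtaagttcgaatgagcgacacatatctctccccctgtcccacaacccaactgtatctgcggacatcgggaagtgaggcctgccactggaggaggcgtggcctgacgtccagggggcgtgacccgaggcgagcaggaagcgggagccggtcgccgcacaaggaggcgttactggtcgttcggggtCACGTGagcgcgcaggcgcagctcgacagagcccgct
Hnrnpu: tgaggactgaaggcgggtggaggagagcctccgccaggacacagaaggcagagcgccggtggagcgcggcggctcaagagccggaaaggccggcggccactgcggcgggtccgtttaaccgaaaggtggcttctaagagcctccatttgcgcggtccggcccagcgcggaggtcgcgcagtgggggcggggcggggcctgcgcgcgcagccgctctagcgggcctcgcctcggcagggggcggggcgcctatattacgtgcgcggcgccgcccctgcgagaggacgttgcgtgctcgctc
Sf3b3: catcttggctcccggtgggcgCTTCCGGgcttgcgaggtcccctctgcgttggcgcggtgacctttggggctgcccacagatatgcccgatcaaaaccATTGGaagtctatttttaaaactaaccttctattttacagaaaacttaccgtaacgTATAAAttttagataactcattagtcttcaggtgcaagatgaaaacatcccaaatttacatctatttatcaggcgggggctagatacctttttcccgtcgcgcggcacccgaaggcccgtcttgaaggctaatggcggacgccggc
Hnrnph3: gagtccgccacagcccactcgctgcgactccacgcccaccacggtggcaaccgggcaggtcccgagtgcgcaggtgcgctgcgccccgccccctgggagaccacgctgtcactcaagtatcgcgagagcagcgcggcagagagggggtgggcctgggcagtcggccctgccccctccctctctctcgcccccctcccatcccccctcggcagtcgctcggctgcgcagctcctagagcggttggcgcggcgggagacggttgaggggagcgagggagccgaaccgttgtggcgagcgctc

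A promoter was at hand for 57 of the 66 tested members and for 9392 tested genes, and 8 motifs were searched on both strands. CCAAT was found in 49.1% of the members' promoters and in 39.4% of all, CCGGAAG in 33.3% and 19.5%, TATAAA in 10.5% and 6.70%, CACGTG in 8 of 57 and in 10.6% of all, and the GC box GGGCGG in 66.7% and 66.1%. The CRE motif TGACGTCA was held by 3.51% and 3.37%, the YY1 motif AAGATGGCG by 3.51% and 3.45%, and the NRF1 motif GCGCATGCGC by 0 members and 2.26% of all promoters. Of the 33 members with a promoter that rose in Atg5 KO, 19 held CCAAT, 12 CCGGAAG, 19 GGGCGG and 1, Hnrnpm, CACGTG. Of the 24 other members 9 held CCAAT, 7 CCGGAAG, 19 GGGCGG and 7 CACGTG. The members' promoters had a median GC content of 60% and a median of 25 CpG, beside 61% and 21 for all. These matches are descriptions of letters in a window and were not tested.

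Among the hnRNP genes, Hnrnpm and Hnrnpu rose most. Hnrnpm encodes a protein that binds GU-rich RNA and controls alternative exons. RPKM of Hnrnpm was 70.3, 47.6 and 84.9 in control, 158, 153 and 152 in Atg5 KO, 158, 110.4 and 162 in Atg7 KO, and 49.5, 108 and 151 in Fip200 KO. The Atg5 KO and Atg7 KO libraries all lay above the highest control, and the 3 Fip200 KO libraries ran from below to above it. The log2 fold change was 1.23 ± 0.20 in Atg5 KO, 1.10 ± 0.25 in Atg7 KO and 0.50 ± 0.43 in Fip200 KO (adjusted p = 0.00893, 0.0351 and 0.582 in limma). The Atg7 KO call was lost without Atg7 KO 1 (adjusted p = 0.116 in limma). Of the 50-base windows of the longest Hnrnpm transcript, 28.8% also occur in a transcript of the neighbouring gene March2, so part of its reads could belong to either.

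Hnrnpu encodes a nuclear protein that binds RNA and chromatin and is among the most abundant hnRNPs. RPKM of Hnrnpu was 138, 85.0 and 154 in control, 262, 242 and 297 in Atg5 KO, 283, 216 and 255 in Atg7 KO, and 155, 189 and 312 in Fip200 KO. Here the Fip200 KO libraries were also all above the highest control, if by little in Fip200 KO 1. The log2 fold change was 1.12 ± 0.23, 1.03 ± 0.25 and 0.77 ± 0.34 in Atg5 KO, Atg7 KO and Fip200 KO (adjusted p = 0.0150, 0.0372 and 0.320 in limma). Without Atg7 KO 1 its adjusted p in Atg7 KO was 0.122 in limma. No 50-base window of its longest transcript was shared with another gene.

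The hnRNP genes with the highest levels, Hnrnpa2b1 and Hnrnpab, rose less. Hnrnpa2b1 encodes a core hnRNP that also sorts RNA for transport. RPKM of Hnrnpa2b1 was 227, 174 and 265 in control, 366, 363 and 395 in Atg5 KO, 375, 268 and 346 in Atg7 KO, and 245, 296 and 424 in Fip200 KO, and its log2 fold change was 0.77 ± 0.16 in Atg5 KO (adjusted p = 0.0168 in limma) and 0.58 ± 0.21 in Atg7 KO (adjusted p = 0.108), where it missed the threshold. RPKM of Hnrnpab, whose protein resembles the AU-rich element binder hnRNP D, was 169.8, 158 and 189.6 in control, 265, 251 and 274 in Atg5 KO, 286, 225 and 225 in Atg7 KO, and 174, 203 and 331 in Fip200 KO, with log2 fold changes of 0.61 ± 0.11 and 0.50 ± 0.16 (adjusted p = 0.0104 and 0.0766 in limma). Both genes were above the controls in all Atg5 KO and Atg7 KO libraries, and the Atg7 KO call of Hnrnpab was kept in 1 of the 6 fits without 1 library.

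Hnrnpa1, which encodes the best known splicing repressor of the family, was listed at a far lower level. RPKM of Hnrnpa1 was 12.1, 8.91 and 9.15 in control, 17.4, 20.2 and 16.7 in Atg5 KO, 23.2, 14.6 and 16.8 in Atg7 KO, and 9.22, 18.2 and 22.6 in Fip200 KO, with log2 fold changes of 0.83 ± 0.16 in Atg5 KO and 0.81 ± 0.22 in Atg7 KO (adjusted p = 0.0121 and 0.0528 in limma). Of its 50-base transcript windows 46.4% occur in 18 other genes, so both its level and its change are uncertain. The same holds for Hnrnpf, whose protein binds G tracts and which shares 49.0% of its windows with 7 genes. RPKM of Hnrnpf was 157, 135 and 160.0 in control, 241, 244 and 228 in Atg5 KO, 248, 172 and 282 in Atg7 KO, and 247, 208 and 228 in Fip200 KO, above the controls in all 9 KO libraries. Its log2 fold change was 0.66, 0.61 and 0.60 in Atg5 KO, Atg7 KO and Fip200 KO (adjusted p = 0.00848, 0.0932 and 0.191 in limma).

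The 4 members of the hnRNP H/F group did not move together. Hnrnph1 rose in Atg5 KO by 0.61 and in Atg7 KO by 0.59 on the log2 scale (adjusted p = 0.0266 and 0.0626 in limma), while Hnrnph2 had log2 fold changes of −0.29 and −0.32 and did not pass. Hnrnph3 fell in Atg5 KO. RPKM of Hnrnph3 was 8.22, 5.37 and 5.52 in control, 2.92, 2.96 and 3.44 in Atg5 KO, 2.25, 5.68 and 2.80 in Atg7 KO, and 4.30, 4.19 and 3.43 in Fip200 KO. It was lower than every control in all Fip200 KO and Atg5 KO libraries and in 2 of the 3 Atg7 KO libraries. Its log2 fold change was −0.91 ± 0.19 in Atg5 KO (adjusted p = 0.0167 in limma), −0.82 ± 0.34 in Atg7 KO and −0.60 ± 0.25 in Fip200 KO (adjusted p = 0.137 and 0.306). The ratio of Hnrnph3 to Hnrnph1 in RPKM was 0.0645, 0.0507 and 0.0433 in control, 0.0173, 0.0181 and 0.0156 in Atg5 KO, 0.0107, 0.0308 and 0.0186 in Atg7 KO, and 0.0483, 0.0275 and 0.0194 in Fip200 KO, where Fip200 KO 1 lay within the controls. This pair too was chosen with its values known.

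Of the other hnRNP genes, Hnrnpl and Hnrnpll, which encode related binders of CA repeats, rose in Atg5 KO by 0.46 and 0.49 on the log2 scale. Hnrnpl also rose in Atg7 KO by 0.41 (adjusted p = 0.0961 in limma, kept in 1 of the 6 fits without 1 library). RPKM of Hnrnpll was 37.6, 41.7 and 40.8 in control, 56.3, 55.6 and 56.7 in Atg5 KO, 46.3, 37.4 and 51.7 in Atg7 KO, and 57.0, 61.3 and 55.1 in Fip200 KO, which placed all Fip200 KO and Atg5 KO libraries above the controls, whereas 2 Atg7 KO libraries were above and 1 was below them. Hnrnpc, whose protein binds uridine tracts, rose in Atg5 KO by 0.42 (adjusted p = 0.0577 in limma, lost in 5 of the 6 fits without 1 library) and stood highest in Fip200 KO, at 81.7 to 135 RPKM against 58.0 to 80.4 in control. The remaining 9 tested hnRNP genes, Hnrnpk, Hnrnpa0, Hnrnpdl, Hnrnpul1, Hnrnpul2, Hnrnpd, Hnrnph2, Hnrnpa3 and Hnrnpr, passed in no KO and had log2 fold changes of −0.40 to 0.48. Hnrnpk, the C-rich RNA binder with 116 to 179 RPKM in control, was among them, and 34.5% of its windows are shared with other genes.

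The Sm ring, on which each spliceosomal snRNA except U6 is loaded, is encoded by Snrpb, Snrpd1, Snrpd2, Snrpd3, Snrpe, Snrpf and Snrpg. In Atg5 KO all of these but Snrpb rose. Snrpg rose most. RPKM of Snrpg was 87.8, 86.0 and 89.0 in control, 169, 177 and 155 in Atg5 KO, 163, 91.0 and 183 in Atg7 KO, and 203, 129.8 and 222 in Fip200 KO. Every KO library was above every control, by little in Atg7 KO 2. The log2 fold change of Snrpg was 0.93 ± 0.10 in Atg5 KO (adjusted p = 0.00372 in limma), 0.67 ± 0.26 in Atg7 KO (adjusted p = 0.123) and 1.04 ± 0.24 in Fip200 KO, where its adjusted p of 0.117 was the smallest of any member.

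Snrpf and Snrpd3, the Sm genes with the lowest and the highest mean RPKM, also had every KO library above every control. RPKM of Snrpf was 5.45, 5.36 and 4.79 in control, 11.02, 8.84 and 9.73 in Atg5 KO, 8.55, 10.7 and 8.56 in Atg7 KO, and 5.59, 8.37 and 17.4 in Fip200 KO, with log2 fold changes of 0.86 ± 0.14 in Atg5 KO and 0.77 ± 0.17 in Atg7 KO (adjusted p = 0.00785 and 0.0313 in limma). RPKM of Snrpd3 was 125, 101 and 122 in control, 172, 153 and 163 in Atg5 KO, 151, 191 and 157 in Atg7 KO, and 139, 170.4 and 274 in Fip200 KO, with log2 fold changes of 0.49 ± 0.12 and 0.51 ± 0.16 (adjusted p = 0.0269 and 0.0754 in limma), the latter lost in all 6 fits without 1 library. Snrpe rose in both, by 0.61 and 0.46 on the log2 scale, whereas Snrpd1 and Snrpd2 rose in Atg5 KO by 0.65 and 0.50 and had values of 0.61 and 0.42 in Atg7 KO that did not pass (adjusted p = 0.106 and 0.109 in limma). RPKM of Snrpb, second in level, was 134, 153 and 179 in control, 174, 167 and 163 in Atg5 KO, 166, 164 and 147 in Atg7 KO, and 104, 103 and 172 in Fip200 KO, and its groups overlapped in each comparison. A difference between Snrpb and the other Sm genes was not tested.

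Of the snRNP-specific Snrp genes, Snrpc, for the U1 protein that contacts the 5′ splice site duplex, rose in Atg5 KO by 0.56 (adjusted p = 0.0100 in limma) and had a log2 fold change of 0.20 in Atg7 KO. Snrpc shares 19.6% of its 50-base transcript windows with 6 other genes. Snrpa, for another U1 protein, had log2 fold changes of 0.05, −0.11 and −0.07 in Atg5 KO, Atg7 KO and Fip200 KO and passed in none. Snrpa1 and Snrpb2 encode the U2 proteins A′ and B″, which bind each other on the U2 snRNA. Snrpa1 passed in no KO, with log2 fold changes of 0.16, 0.22 and 0.39 in Atg5 KO, Atg7 KO and Fip200 KO. RPKM of Snrpb2 was 69.5, 64.4 and 79.2 in control, 60.6, 61.6 and 62.0 in Atg5 KO, 59.2, 47.9 and 49.6 in Atg7 KO, and 63.9, 48.1 and 43.2 in Fip200 KO, lower than every control in all 9 KO libraries. Its log2 fold change was −0.44 ± 0.15 in Atg7 KO (adjusted p = 0.0966 in limma, lost in all 6 fits without 1 library), −0.20 ± 0.11 in Atg5 KO and −0.47 ± 0.21 in Fip200 KO. The ratio of Snrpb2 to Snrpa1 in RPKM was 1.86 to 2.24 in control, 1.51 to 1.58 in Atg5 KO, 1.16 to 1.32 in Atg7 KO and 0.725 to 1.40 in Fip200 KO, so that no KO library reached a control, again for a pair chosen after its values were seen.

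SF3A and SF3B are the subcomplexes of the U2 snRNP that hold the branch point. The 3 Sf3a genes rose in Atg5 KO. RPKM of Sf3a3 was 34.0, 38.4 and 40.9 in control, 65.6, 64.8 and 70.9 in Atg5 KO, 73.0, 45.0 and 63.7 in Atg7 KO, and 43.3, 56.8 and 64.1 in Fip200 KO, with log2 fold changes of 0.82 ± 0.11 in Atg5 KO, 0.65 ± 0.20 in Atg7 KO and 0.51 ± 0.21 in Fip200 KO (adjusted p = 0.00550, 0.0744 and 0.289 in limma). Every KO library was above every control for this gene. RPKM of Sf3a2 was 34.7, 28.8 and 31.8 in control, 50.4, 41.1 and 38.9 in Atg5 KO, 38.9, 45.7 and 35.5 in Atg7 KO, and 29.7, 34.4 and 94.8 in Fip200 KO, and its value in Fip200 KO 3 exceeded that of any other library. Sf3a2 and Sf3a1 rose in Atg5 KO by 0.44 and 0.42 on the log2 scale (adjusted p = 0.0499 and 0.0303 in limma), calls that were lost in 4 and 1 of the 6 fits without 1 library.

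Of the 6 SF3B genes, Sf3b3 alone passed in any KO. Its protein is a scaffold for the HEAT domain of SF3B1. RPKM of Sf3b3 was 37.6, 34.3 and 36.0 in control, 71.0, 67.6 and 70.3 in Atg5 KO, 67.3, 115 and 57.5 in Atg7 KO, and 26.8, 45.9 and 89.4 in Fip200 KO. The controls lay within a few RPKM of each other, all Atg5 KO and Atg7 KO libraries were above them, and Fip200 KO 1 was below and Fip200 KO 3 far above them. The log2 fold change was 0.94 ± 0.09 in Atg5 KO, 1.08 ± 0.26 in Atg7 KO and 0.41 ± 0.40 in Fip200 KO (adjusted p = 0.00372, 0.0368 and 0.631 in limma). The Atg7 KO call was lost without control 2 or without control 3 (adjusted p up to 0.127 in limma), and without Atg7 KO 2, the library with the highest value, the log2 fold change was 0.78.

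Sf3b1, which encodes the branch point protein mutated in myelodysplastic syndromes and uveal melanoma, passed in no KO. RPKM of Sf3b1 was 62.6, 64.4 and 65.7 in control, 62.7, 62.9 and 66.6 in Atg5 KO, 56.5, 51.5 and 70.4 in Atg7 KO, and 60.9, 78.1 and 67.9 in Fip200 KO, with log2 fold changes of −0.00 ± 0.09, −0.12 ± 0.16 and 0.09 ± 0.18 in Atg5 KO, Atg7 KO and Fip200 KO. RPKM of Sf3b2, the SF3B gene with the highest level, was 67.8, 82.3 and 76.7 in control, 95.1, 93.9 and 70.5 in Atg5 KO, 82.4, 86.3 and 76.1 in Atg7 KO, and 62.4, 78.3 and 83.5 in Fip200 KO, and its groups overlapped in each comparison. The ratio of Sf3b3 to Sf3b1 in RPKM was 0.602, 0.532 and 0.548 in control, 1.13, 1.07 and 1.06 in Atg5 KO, 1.19, 2.22 and 0.817 in Atg7 KO, and 0.441, 0.588 and 1.32 in Fip200 KO. This pair was chosen after the values were seen. Sf3b4, Sf3b5 and Sf3b6 had log2 fold changes of −0.25 to 0.25 and passed in no KO, and Sf3b4 shares 49.3% of its windows with another gene.

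U2AF is a heterodimer in which U2af2 encodes the subunit that binds the polypyrimidine tract and U2af1 the subunit that reads the AG at the intron end. RPKM of U2af2 was 51.7, 53.5 and 60.2 in control, 98.04, 93.6 and 99.3 in Atg5 KO, 101, 83.6 and 90.2 in Atg7 KO, and 45.4, 69.4 and 94.8 in Fip200 KO. All Atg5 KO and Atg7 KO libraries were above all controls, and the Fip200 KO libraries straddled them. The log2 fold change was 0.81 ± 0.10 in Atg5 KO, 0.73 ± 0.14 in Atg7 KO and 0.28 ± 0.28 in Fip200 KO (adjusted p = 0.00487, 0.0243 and 0.642 in limma), and the Atg5 KO and Atg7 KO calls were kept in every fit without 1 library. RPKM of U2af1 was 83.3, 64.0 and 78.1 in control, 128, 124 and 134 in Atg5 KO, 138, 99.1 and 120.2 in Atg7 KO, and 71.9, 102 and 119.8 in Fip200 KO, with log2 fold changes of 0.78 ± 0.12 and 0.65 ± 0.18 in Atg5 KO and Atg7 KO (adjusted p = 0.00785 and 0.0540 in limma). U2af1l4, a paralog of U2af1, had log2 fold changes of 0.19, 0.13 and −0.11 in Atg5 KO, Atg7 KO and Fip200 KO and passed in none. U2af1, U2af2 and U2af1l4 share 59.4%, 29.9% and 97.3% of their 50-base transcript windows with other genes, so their values are uncertain.

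The Prpf genes encode proteins of the U5 and U4/U6 snRNPs, of the PRP19 complex and of the U1 snRNP, and most did not pass in any KO. RPKM of Prpf8, for the core U5 protein at the catalytic centre, was 43.8, 52.7 and 49.9 in control, 56.5, 49.8 and 59.5 in Atg5 KO, 60.1, 51.2 and 50.3 in Atg7 KO, and 37.7, 50.0 and 71.8 in Fip200 KO, with groups that overlapped in each comparison. It passed in no KO.

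Prpf19 and Prpf31 rose in Atg5 KO and Atg7 KO. Prpf19 encodes the ubiquitin ligase at the heart of the PRP19 complex. RPKM of Prpf19 was 13.4, 13.7 and 13.6 in control, 25.8, 25.9 and 22.5 in Atg5 KO, 22.3, 31.4 and 21.8 in Atg7 KO, and 14.6, 13.1 and 27.7 in Fip200 KO, with log2 fold changes of 0.84 ± 0.11 in Atg5 KO and 0.85 ± 0.18 in Atg7 KO (adjusted p = 0.00511 and 0.0285 in limma). RPKM of Prpf31, which encodes a U4/U6 protein mutated in retinitis pigmentosa, was 10.98, 10.5 and 12.05 in control, 20.3, 18.7 and 21.4 in Atg5 KO, 24.04, 17.3 and 21.8 in Atg7 KO, and 11.03, 14.6 and 22.4 in Fip200 KO, with log2 fold changes of 0.82 ± 0.12 and 0.87 ± 0.17 (adjusted p = 0.00608 and 0.0247 in limma). The controls of both genes lay close together, and all Atg5 KO and Atg7 KO libraries were above them. Prpf38a, Prpf4 and Prpf38b rose in Atg5 KO alone at this threshold, by 0.58, 0.48 and 0.34 on the log2 scale, with values of 0.44, 0.28 and 0.21 in Atg7 KO. The call of Prpf38b was kept in 1 of the 6 fits without 1 library.

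Prpf40b fell in Atg7 KO and Atg5 KO. RPKM of Prpf40b was 20.1, 22.9 and 18.8 in control, 13.2, 14.3 and 18.8 in Atg5 KO, 14.9, 9.41 and 11.8 in Atg7 KO, and 39.1, 20.7 and 6.82 in Fip200 KO. It was below the controls in all Atg7 KO libraries and in 2 of the 3 Atg5 KO libraries, while the Fip200 KO libraries held both the highest and the lowest value of all 12. The log2 fold change was −0.77 ± 0.20 in Atg7 KO, −0.41 ± 0.16 in Atg5 KO and −0.20 ± 0.56 in Fip200 KO (adjusted p = 0.0477, 0.0941 and 0.887 in limma). The calls were kept in 3 of 6 fits without 1 library in Atg7 KO and in 1 of 6 in Atg5 KO. Prpf3, Prpf4b, Prpf6, Prpf18 and Prpf39 passed in no KO and had log2 fold changes of −0.42 to 0.14.

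**Figure D4:**
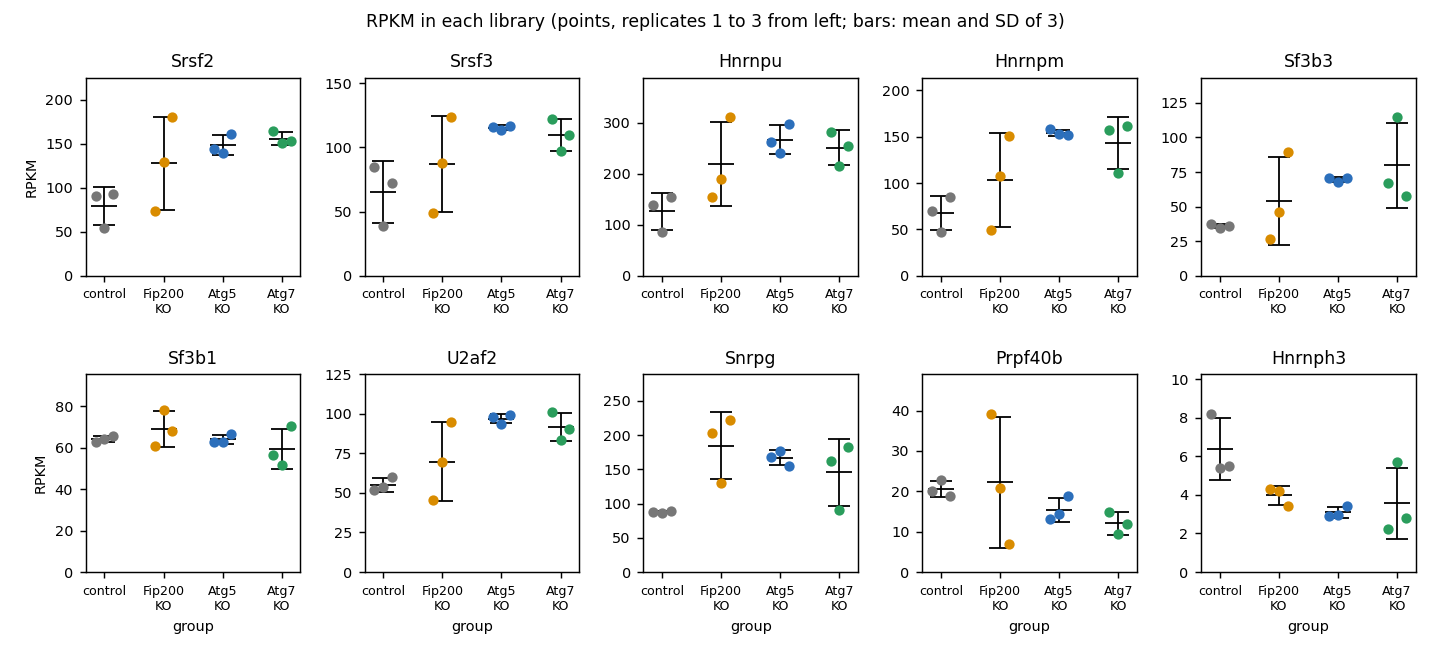
RPKM of 10 members in each of the 12 libraries (points, replicates 1 to 3 from left in each group), with bars for the mean and SD of the 3 libraries of a group. For Srsf2, Srsf3, Hnrnpu, Hnrnpm, Sf3b3 and U2af2 the Atg5 KO and Atg7 KO points all lie above the control points, Sf3b1 stays between 51.5 and 78.1 RPKM in every group, and Hnrnph3 is lower in Atg5 KO.

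The KO groups were also compared with each other in 1 limma fit of all 12 libraries and 12233 genes. No gene passed in any of the 3 differences, members included (0% of all genes in each direction and at each limit). The smallest adjusted p of a member was 0.552 in limma for Atg5 KO minus Fip200 KO, for Snrpd2 at a log2 difference of 0.52 ± 0.17. For Atg7 KO minus Fip200 KO it was 0.618 for Hnrnpll at −0.37 ± 0.14. An unadjusted p under 0.05 was found for 4, 2 and 2 members in Atg5 KO minus Fip200 KO, Atg7 KO minus Fip200 KO and Atg7 KO minus Atg5 KO, that is 6.06%, 3.03% and 3.03% of members beside 7.58%, 7.49% and 4.59% of all genes. A larger count of calls in Atg5 KO than in Atg7 KO or Fip200 KO is therefore not a shown difference between these cells. Without Fip200 KO 3, 4 members were higher in Atg5 KO than in Fip200 KO, where 3.17% of all genes were, and 6 were higher and 1 lower in Atg7 KO than in Fip200 KO, where 3.44% and 2.92% of all genes were.

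Genes of the same machinery outside the prefixes were counted from lists of known members, to be read beside the 22.9% of all genes that rose in Atg5 KO and the 11.3% in Atg7 KO. Of 35 further U1, U2 and tri-snRNP proteins, 19 rose and 2 fell in Atg5 KO, 10 rose and 2 fell in Atg7 KO, and none passed in Fip200 KO. Lsm2, a subunit of the ring on U6 snRNA, rose most of these in Atg5 KO, by 1.08 on the log2 scale. Of 26 PRP19 complex proteins, helicases and step factors, 7 rose and 2 fell in Atg5 KO and 3 rose and 2 fell in Atg7 KO. The shares that rose were near those of all genes. The helicase gene Dhx15 was among the genes that rose, at 1.11 and 0.96. Of 14 genes that assemble the Sm ring, 9 rose in Atg5 KO and 3 in Atg7 KO, with Gemin6 of the SMN complex at 1.05 and 1.01. Of 9 exon junction complex genes, 7 rose in Atg5 KO and 2 in Atg7 KO.

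Of 38 tested regulators of alternative splicing outside the prefixes, 24 rose in Atg5 KO, 13 in Atg7 KO and 1 in Fip200 KO, and none fell. The 1 in Fip200 KO was Rbmx, which encodes hnRNP G and had the highest log2 fold change of these lists in all 3 KOs, at 1.70 in Atg5 KO, 1.86 in Atg7 KO and 1.52 in Fip200 KO (adjusted p = 0.0139, 0.0126 and 0.0907 in limma). Its RPKM was 1.29 to 3.08 in control and 5.65 to 11.1 in Atg5 KO, and a retrogene copy could take part of its reads. Sfpq, a paraspeckle protein gene, rose by 1.49 in Atg5 KO and 1.46 in Atg7 KO. Of the 10 kinases and import receptors of SR proteins, 3 rose in Atg5 KO and 0 in Atg7 KO, near or below the shares of all genes, and of 10 nonsense-mediated decay genes 4 and 1 did.

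Proliferation genes and markers of other cell types also differed between the libraries. Of 12 proliferation genes, 6 rose in Atg5 KO, 2 in Atg7 KO and 0 in Fip200 KO, with median log2 fold changes of 0.54, 0.45 and 0.23. Their summed RPKM was 451, 656 and 681 in control, lowest in control 1, whereas the splicing genes were lowest in control 2. It was 693 to 826 in Atg5 KO and 709 to 801 in Atg7 KO. In Fip200 KO it was 472, 459.9 and 993, highest in the library in which the splicing genes were also highest. In Atg5 KO 22.9% of all genes rose and in Atg7 KO 11.3%. Of 8 endothelial markers 3 rose in Atg5 KO and 0 in Atg7 KO or Fip200 KO, and their summed RPKM was 2717, 1129 and 1831 in control, lowest in control 2, where the Srsf and Hnrnp genes were also lowest. In Fip200 KO the endothelial sums were 2482, 2461 and 1824, lowest in Fip200 KO 3, where the splicing genes were highest. Of 4 lymphatic markers 2 rose in Atg5 KO and 1 in Atg7 KO. Of 7 mesenchymal markers 3 were tested. Of these 2 rose in each of Atg5 KO and Atg7 KO, with Thy1 at 4.02 and 4.32. Others of the 7 went the other way: Dcn was highest in control 2 and control 3, and the paper lists Pdgfra as lower in every KO. The 1 tested leukocyte marker, Cd68, fell by 2.26 and 1.70. Summed mesenchymal markers were at 18.9 to 81.9 RPKM in control, 112 to 213 in Atg5 KO and 73.6 to 361 in Atg7 KO. In Fip200 KO the mesenchymal sums were 289.8, 232 and 16.4 and the lymphatic sums 821, 661 and 219, both also lowest in Fip200 KO 3. The leukocyte sums, nearly all Cd68, were 263, 19.1 and 15.9 RPKM in Fip200 KO, highest in Fip200 KO 1, where the splicing genes were lowest, and 34.5 to 91.8 in control. Of the epithelial markers, Krt8 was near 0 and Krt18 did not pass. In such bulk samples fewer cells of a type and less RNA per cell cannot be told apart. The part of these groups in the values of the splicing genes was not tested.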

How the data were processed

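Total RNA of 12 libraries (4 groups of 3) was made into directional libraries. According to the paper's methods and the submitters' processing notes, the authors aligned reads with TopHat2, counted them per known transcript and compared groups with edgeR; versions, genome build, annotation and the treatment of reads with several matches are not given in the sources used here. The authors deposited 3 tables, 1 per KO against control, with an RPKM value per library and gene; the unit is not named there and was read from the values. The tables also hold group means, fold changes and p-values of the authors' own comparisons, which were not used.

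Whole reads were recovered from the RPKM values for 14831 of 14851 genes (within 2e-05 of a read), and the other 20 had no reads. The smallest whole numbers that fit the ratios between libraries were taken. Reads of a gene that share a factor in all libraries would therefore be understated. One row without a symbol was kept out of the naming. Genes that reached an RPKM of 0.5 in 3 or more compared libraries were tested on log2(RPKM + 0.5) by limma 3.58.1 (R 4.3.3) with a trend, in a fit of the 6 libraries compared or, between KOs, of all 12. P-values were adjusted by Benjamini-Hochberg over all genes tested, and a member passed at 0.1. Fold changes are on the log2(RPKM + 0.5) scale, which understates those of low genes. The script was tested on simulated data. Python 3.11.15, numpy 2.4.6, pandas 2.3.3 and matplotlib 3.10.9 were used.

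The members, gene lists and tests were chosen with earlier results of these data known. Named by rule were the 2 members of each prefix with the highest mean RPKM, members called with a log2 fold change of at least 1, the 5 highest and 5 lowest changes per KO among members that passed, those that passed in the same direction in all KOs, those that failed the filter, the 2 highest and 2 lowest changes per KO of the lists past that fold limit, and the targeted genes; any further gene was named after its values were seen. The values of 1 gene that this rule names are not reported here. Shared sequence was counted as 50-base windows of the longest GENCODE vM21 transcript that occur in transcripts of other genes. The paper speaks of independent replicates and, for its experiments in general, of biological triplicates. The sources used here do not say whether the libraries of a group came from separate cultures, so p-values measure the spread between these libraries, which may be technical. Alternatives were other pseudocounts, no filter, another scaling, all libraries in 1 fit, a replicate block, the library-name prefix as a term, limma-voom on the recovered reads and leaving out each library.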

Additional observations from a re-analysis of the deposited data

How the results depend on the processing

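No member that passed changed direction under any alternative run, and over all of them single-gene calls were kept 476 times and lost 94 times in Atg5 KO, and kept 197 and lost 111 times in Atg7 KO. With all 12 libraries in 1 fit, 4 members were higher in Fip200 KO (3.47% of all genes) and 1 passed a log2 fold change of 1 (4.97%), 23 were higher and 1 lower in Atg5 KO (9.83% and 9.20%), and 13 were higher and 1 lower in Atg7 KO (8.76% and 11.3%). Without the filter on low values 1 member was lower in Atg5 KO (15.2% of all genes), and by limma-voom 1 was lower in Atg7 KO (13.7%). With the prefix of the library names as a term, 0 were higher, 0 lower and 0 past a log2 fold change of 1 in Atg5 KO and in Atg7 KO. Of all genes 2.73% were higher, 3.70% lower and 5.42% past that limit in Atg5 KO. In Atg7 KO these shares were 0.0654%, 0.245% and 0.311%. Within the JG libraries, a comparison chosen after seeing the data, 5 members passed a log2 fold change of 1 in Atg5 KO (12% of all genes). A comparison within the FY libraries, also chosen then, rests on control 1 alone, which is assumed to vary like the KO libraries, and called 0. With a replicate block, 33 members were higher and 1 lower in Atg5 KO (18.2% and 15.4% of all genes) and 14 higher and 0 lower in Atg7 KO (6.69% and 9.40%). Replicate numbers shared by 2 groups did not pair the libraries, since deviations of same-numbered libraries correlated at −0.22 to 0.08. Leaving out 1 library gave 0 to 1 higher members in Fip200 KO (1 without Fip200 KO 3, where 1.93% of all genes were higher), 28 to 35 higher, 1 to 2 lower and 1 to 5 past a log2 fold change of 1 in Atg5 KO (12.2% to 24%, 11.7% to 18.5% and 8.49% to 13% of all genes), and 5 to 27, 0 to 2 and 0 to 6 in Atg7 KO (2.42% to 16.5%, 3.71% to 16.8% and 4.99% to 13%). Between KOs, leaving out 1 library gave 0 to 4 members higher in Atg5 KO than in Fip200 KO, and 0 to 6 higher, 0 to 1 lower and 0 to 2 past a log2 fold change of 1 in Atg7 KO against Fip200 KO (up to 3.17%, 3.44%, 2.92% and 3.30% of all genes). The cause of these changes was not tested. Another scaling moved the median of all genes by −0.06, 0.01 and −0.01 in Atg5 KO, Atg7 KO and Fip200 KO. Depth did not limit the tested members, which had at least 77 reads per library, but no depth removes the uncertainty of shared sequence.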
